A study of Homo sapiens with 6 samples.

Results

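The 60 genes described here lie along the long arm of chromosome 21 and include the clustered interferon receptor genes IFNAR1, IFNAR2, IL10RB and IFNGR2, with SOD1, APP and DYRK1A. They were chosen from the deposited table of counts because transcripts of this chromosome lay lower in the libraries labelled BMAL1 knockout, so their difference between the groups is a description here and carries no test. All 60 were among the 14860 loci kept by a filter on low counts, of 22354 loci in the table. The table held 220 loci of chromosome 21, and the filter kept 129 of them, 69 of which were not members.

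The study profiled RNA from HTori-3.1, an immortalised line of human thyroid follicular cells. It asked how loss of BMAL1, a core transcription factor of the circadian clock, alters gene expression in these cells when senescence is induced. There were 3 libraries labelled control, of wild-type genotype, and 3 labelled as carrying a guide RNA against BMAL1, called BMAL1 knockout here, in which Cas9 and the guide were delivered by virus, cells were selected with puromycin and single clones were picked. That route is taken from the sample titles, which name the guide RNA, since the protocol also describes siRNA against BMAL1. All 6 came from cells given etoposide, a topoisomerase poison that breaks DNA, at 2 μM for 12 h by the sample labels and 24 h by the protocol. Whether the 3 knockout replicates come from 1 clone is not given, so a difference between clones and the loss of BMAL1 cannot be told apart. The control libraries held 26893063, 27029060 and 28513703 counts, and the knockout libraries 43148059, 29860233 and 43563391.

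Type I interferons signal through a receptor built from IFNAR1 and IFNAR2, interferon gamma through IFNGR1 and IFNGR2, and interleukin 10 and the lambda interferons through receptors that share IL10RB. Janus kinases bound to these receptors phosphorylate STAT proteins, which then switch on interferon-stimulated genes. Chromosome 21 is the chromosome present in an extra copy in Down syndrome, where SOD1, APP and DYRK1A have been studied for oxidative stress, amyloid and brain development.

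BMAL1, the targeted gene (chr11:13276652-13387266, plus strand, hg38), was measured at 11.3, 12.2 and 14.6 CPM (counts scaled to a common library size and corrected for library composition) in the libraries labelled control and at 17.9, 19.8 and 19.4 CPM in those labelled BMAL1 knockout. Every knockout-labelled library was above every control-labelled library, so the transcript was not lower under the knockout label. Its level does not show whether the protein was lost. The means were 12.7 ± 1.70 and 19.0 ± 0.987 CPM (SD, n = 3), a log2 fold change of 0.58 (standard error of 0.11, Benjamini-Hochberg adjusted p = 0.0204 in edgeR's quasi-likelihood test). The same test gave an adjusted p of 0.0896 without control 1, 0.113 without control 2, 0.0749 without knockout 2 and 0.0598 without knockout 3, so the call was lost in those 4 fits, with log2 fold changes of 0.50, 0.55, 0.55 and 0.56. The study's methods name a western blot of the picked clones as its check of the knockout, and its captions list BMAL1 blots of the knockout line. The study also reports lower NFKBIA and higher CDKN1A expression in its knockout group. The deposited counts hold no protein values. From them alone it cannot be settled whether columns match labels, and every direction below follows the labels.

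A pair of libraries stood apart, 1 in each group. Against the mean of its own group, the log2 level of a gene shifted by -0.10 for each 10 percentage points of exon GC content in control 3 and by -0.10 in knockout 1, while the slopes of the other 4 libraries lay between 0.04 and 0.06. Deviations from a group mean cancel within the group, so the slopes of its other libraries are not independent of the -0.10. In knockout 1, 15 of the 60 members were above all 3 control libraries, and the median exon GC content of those 15 was 42.3%, against 46.1% for all members. Knockout 2 and knockout 3 were both below all 3 control libraries for 43 members, and for 7 of these knockout 1 was above all controls. No share of all loci is given beside the counts of 15, 43 and 7, so nothing is read from them. Because of the GC slopes, the median of each group of genes is followed by its value with the GC trend of each library removed. Its values without knockout 1 and without control 3 are given too. Some single genes are given a part of these values.

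Thyroid identity was read from 8 markers. PAX8, FOXE1 and HHEX, transcription factors of the follicular cell, were at or above 1 CPM in every library, with PAX8 the most abundant at 124, 125 and 151 CPM in control and 92.5, 106 and 130.2 CPM in knockout libraries. TG, TSHR, SLC5A5 and DUOX2, which serve thyroid hormone synthesis or receive the thyrotropin signal, were under 1 CPM in every library, and NKX2-1 was at 0, where 3 counts would have been 0.0689 to 0.112 CPM depending on the library. The summed level of the 8 markers was 182, 182 and 212 CPM against 141, 158 and 183 CPM. Among epithelial markers KRT7, KRT8, KRT18 and KRT19 were present, with KRT8 the most abundant, while EPCAM and CDH1 were under 1 CPM, and the 6 together summed to 2990.1, 3044 and 2897 CPM in control and 2539.5, 2482 and 2563 CPM in knockout libraries. Of 5 blood cell markers only PTPRC was at or above 1 CPM throughout, at 6.41, 6.24 and 6.53 CPM against 2.51, 1.97 and 2.60 CPM, while CD14 was at 0.261, 0.337 and 0.643 against 0.375, 1.05 and 1.08 CPM, with LYZ at most 0.187 CPM, CD3E and HBB at 0 and a summed level of 6.82, 6.77 and 7.18 against 3.00, 3.11 and 3.68 CPM. Among 7 fibroblast markers COL1A1 and PDGFRB were present, COL1A1 the most abundant, COL1A2 and COL3A1 reached at most 2 counts and DCN and LUM were at 0, with sums of 922, 926 and 789.6 against 718, 935 and 989 CPM. None of 4 endothelial markers reached 1 CPM in every library, with VWF the most abundant and sums of 2.05, 1.83 and 2.21 against 1.34, 1.24 and 1.72 CPM, and 4 markers of C cells and parathyroid cells summed to at most 0.305 CPM, with CALCA and PTH at 0. The part of these markers in the results below was not tested.

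Promoter sequences are shown for DYRK1A, SUMO3 and PWP2, members whose windows hold a motif tied to the study's target. RefSeq promoters of build GRCh38.p14, from 250 bases before to 50 after each start, were found for 46 of the 60 members, in 76 windows of 300 bases. The E-box CACGTG, which BMAL1 binds together with CLOCK, was in 6 of the 76 windows (7.89%) and in 2548 of 35116 windows of all genes (7.26%). The motif reads the same on either strand. It was in windows of C2CD2, CBR1, DYRK1A, PWP2, SUMO3 and TTC3. The windows shown are chr21:37366523-37366822 for a DYRK1A start and chr21:44107149-44107448 for PWP2, both on the plus strand, and chr21:44818013-44818312 on the minus strand for SUMO3. Capitals mark the motif, and a match is a description of these letters only.
DYRK1A promoter: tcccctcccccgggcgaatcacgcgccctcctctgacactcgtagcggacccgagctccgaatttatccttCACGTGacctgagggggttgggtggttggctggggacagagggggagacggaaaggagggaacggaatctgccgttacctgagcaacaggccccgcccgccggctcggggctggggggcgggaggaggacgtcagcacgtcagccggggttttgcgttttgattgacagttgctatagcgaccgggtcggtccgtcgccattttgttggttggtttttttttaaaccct
SUMO3 promoter: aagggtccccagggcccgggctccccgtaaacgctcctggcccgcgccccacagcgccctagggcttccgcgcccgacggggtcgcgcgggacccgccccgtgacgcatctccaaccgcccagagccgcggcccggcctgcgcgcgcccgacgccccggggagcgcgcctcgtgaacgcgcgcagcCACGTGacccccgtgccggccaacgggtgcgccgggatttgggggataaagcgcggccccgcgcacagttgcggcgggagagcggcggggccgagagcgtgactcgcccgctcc
PWP2 promoter: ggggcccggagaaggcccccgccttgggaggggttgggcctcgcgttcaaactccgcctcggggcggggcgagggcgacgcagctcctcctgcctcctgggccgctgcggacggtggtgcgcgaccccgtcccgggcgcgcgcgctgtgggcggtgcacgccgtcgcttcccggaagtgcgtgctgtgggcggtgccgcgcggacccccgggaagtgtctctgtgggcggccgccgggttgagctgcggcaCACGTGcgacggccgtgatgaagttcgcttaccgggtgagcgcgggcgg

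As a whole the members lay slightly lower in the libraries labelled BMAL1 knockout. Their counts made up 0.814%, 0.808% and 0.817% of all counts in the control libraries and 0.737%, 0.739% and 0.740% in the knockout libraries, and no library of either group came within the range of the other. The widest 95% Wilson intervals of these shares, which cover counting error only, were 0.811% to 0.818% for control 1 and 0.736% to 0.742% for knockout 2. The summed level was 8217 ± 89.6 CPM in control and 7316 ± 114 CPM in knockout libraries (SD, n = 3). In bulk RNA, fewer cells of a type and less RNA per cell cannot be told apart. The median log2 fold change of the 60 was -0.14, a difference of -8.97%, with an interquartile range of -0.23 to -0.06, and the median over all 14860 loci was 0.01. Below 0 were 51 members and above 0 were 9, where 47.8% of all loci were below 0. The range ran from -0.37 for BACE2 to 0.56 for CXADR.

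All 3 knockout libraries were below all 3 control libraries for 29 members (48.3%), beside 11.5% of all loci, and above them for CXADR, SYNJ1 and CBR1, beside 11.8% of all loci. Past an adjusted p of 0.05 were 3 members in the lower direction, APP, BACE2 and ETS2, beside 1.43% of all loci, and CXADR in the higher, beside 1.08%. Since the contrast chose the members, nothing is read from these counts. The count of 3 was 6 without knockout 1, beside 2.26% of all loci, 0 without any other single library, beside 0.443% to 0.979%, and 20 with the GC trend removed, beside 5.05% of all loci. CXADR was the 1 higher member past the threshold in both of these, beside 1.95% and 2.67% of all loci. Without control 2 the count in the higher direction was 0, beside 0.304% of all loci. The member median was -0.18 with the GC trend removed and -0.14 without either knockout 1 or control 3. Library by library, the median log2 level of the members relative to the control mean was -0.01, -0.01 and 0.03 in the control libraries and -0.13, -0.15 and -0.12 in the knockout libraries.

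**Figure D1:**
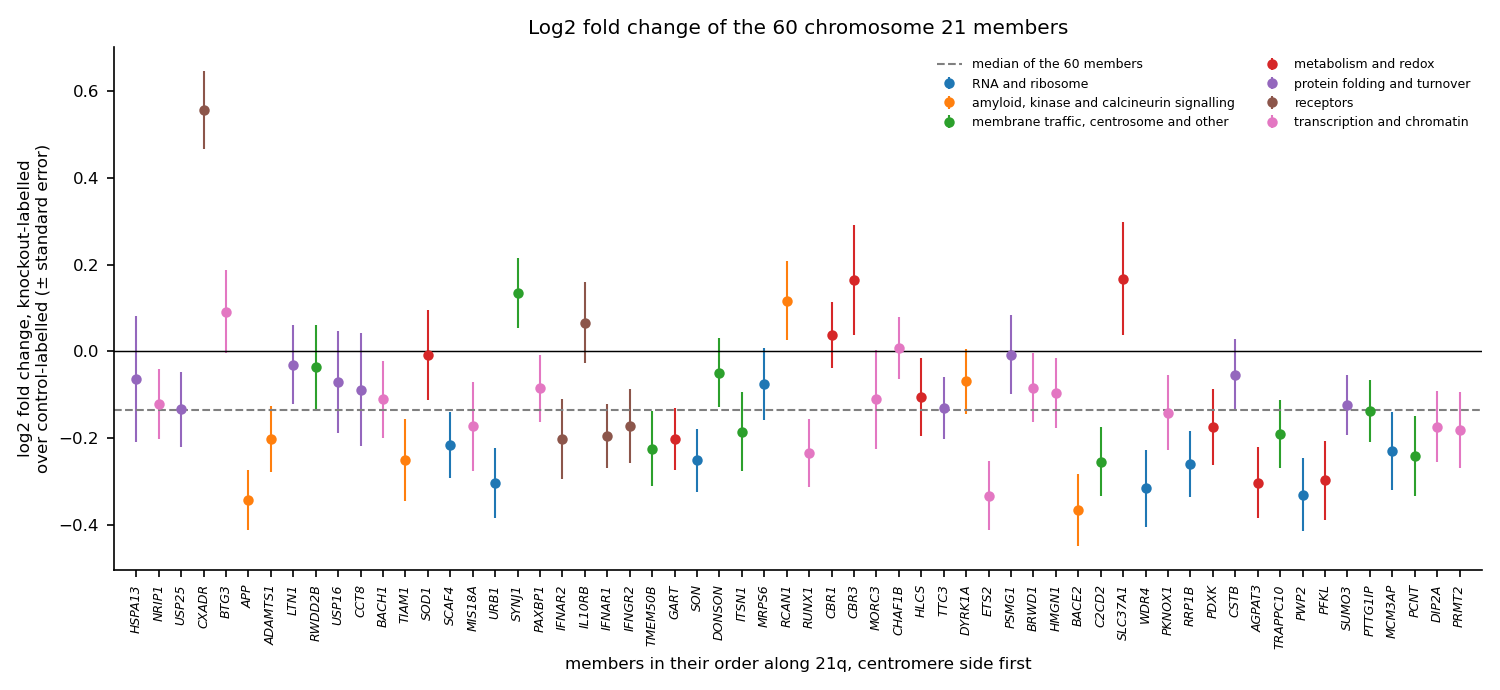
Log2 fold change of each of the 60 members, knockout-labelled over control-labelled libraries, in their order along the long arm, coloured by role, with standard errors as bars (3 libraries a group). The dashed line is their median of -0.14, 51 points lie below 0, and CXADR stands highest at 0.56.

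The interferon receptor genes lie next to each other in the order IFNAR2, IL10RB, IFNAR1, IFNGR2. IFNAR1, whose chain is bound by the kinase TYK2 (chr21:33324387-33359864), was measured at 105, 103 and 112 CPM in control and at 97.1, 90.5 and 91.6 CPM in knockout libraries, a log2 fold change of -0.20 (standard error 0.07). Each knockout library was below each control library.

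IFNAR2, the chain bound by JAK1 (chr21:33205282-33265675), was at 36.0, 37.0 and 41.4 CPM in control and at 34.2, 34.6 and 30.6 CPM in knockout libraries, a log2 fold change of -0.20 (standard error 0.09). The groups did not overlap, though knockout 2 and control 1 were close. IL10RB (chr21:33266367-33311420) was at 30.6, 33.4 and 33.3 CPM against 34.0, 37.0 and 30.9 CPM, a log2 fold change of 0.07 (standard error 0.09), with the groups interleaved, and of 0.00 to 0.13 with a library left out. IFNGR2, the signalling chain of the interferon gamma receptor (chr21:33403413-33479348), was at 62.6, 57.0 and 62.2 CPM against 57.2, 55.0 and 49.3 CPM, a log2 fold change of -0.17 (standard error 0.09). Only knockout 1 reached the control range, just above control 2. With a library left out, IFNAR1 ran from -0.23 to -0.16, IFNAR2 from -0.24 to -0.14 and IFNGR2 from -0.22 to -0.11. All 4 genes are on the plus strand.

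Per length, as CPM per kilobase of the canonical transcript (RPKM), the level in control libraries was 35.7 ± 1.84 for IFNGR2, 17.5 ± 0.786 for IFNAR1, 16.7 ± 0.831 for IL10RB and 9.36 ± 0.702 for IFNAR2 (SD, n = 3). IFNAR1 and IL10RB were within their spread of each other on this scale, and IFNGR2 and IFNAR2 were apart from both. Some of these reads are uncertain in origin, because whether counting used strand is not given. IFNAR2 and IL10RB share exons with the readthrough locus IFNAR2-IL10RB, and IFNGR2 overlaps exons of TMEM50B on the opposite strand. TMEM50B itself had a log2 fold change of -0.22. Over the 9 members from IFNAR2 to ITSN1 the median log2 fold change was -0.20 (-0.23 with the GC trend removed, -0.22 without knockout 1 and -0.16 without control 3), with 8 below 0, beside 47.8% of all loci, and 6 without overlap in the lower direction, beside 11.5%.

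CXADR, the cell adhesion protein used as a receptor by coxsackieviruses and adenoviruses, was the other receptor in the group and the member that stood apart. It was measured at 21.3, 21.4 and 23.0 CPM in control and at 30.2, 34.4 and 32.1 CPM in knockout libraries, a log2 fold change of 0.56 (standard error 0.09). Every knockout library was higher than every control library. Its log2 fold change lay between 0.51 and 0.60 with a library left out.

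**Figure D2:**
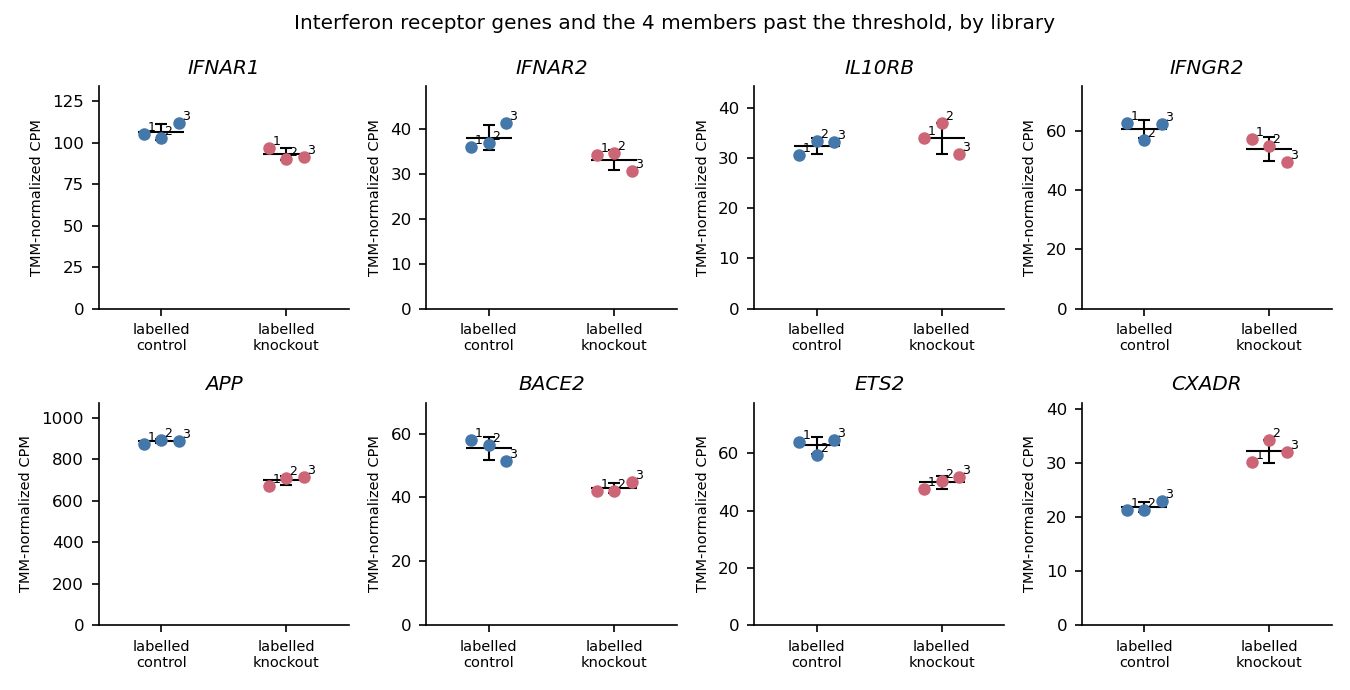
Level of IFNAR1, IFNAR2, IL10RB, IFNGR2, APP, BACE2, ETS2 and CXADR in CPM on axes from 0, with a numbered point per library and bars for the mean ± SD of 3 libraries. APP, BACE2 and ETS2 are lower in all 3 knockout-labelled libraries, CXADR is higher, and IL10RB interleaves.

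The group of amyloid, kinase and calcineurin genes, in which the RAC activator TIAM1 and the secreted protease ADAMTS1 were also put, had a median log2 fold change of -0.23 over 6 members, 5 of them below 0. It was -0.25 with the GC trend removed, -0.18 without knockout 1 and -0.20 without control 3. APP, the precursor of the amyloid beta peptide, was at 875, 894 and 889 CPM in control and at 672, 711 and 711 CPM in knockout libraries, a log2 fold change of -0.34 (standard error 0.07). BACE2, a protease that cleaves APP within the amyloid region, was at 58.1, 56.4 and 51.5 CPM against 41.9, 42.1 and 44.7 CPM, the lowest log2 fold change of the members at -0.37 (standard error 0.08). Both genes were lower in each knockout library than in any control library. With a library left out, the log2 fold change lay between -0.36 and -0.32 for APP and between -0.41 and -0.33 for BACE2.

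DYRK1A, a kinase whose dosage affects brain growth, was at 102, 95.1 and 108 CPM against 95.2, 97.2 and 97.5 CPM, a log2 fold change of -0.07 (standard error 0.07). Its groups overlapped through control 2, and the log2 fold change was -0.12 with the GC trend removed and -0.02 without control 3. RCAN1, an inhibitor of calcineurin, was at 31.8, 31.7 and 30.5 CPM against 37.4, 33.2 and 31.3 CPM, a log2 fold change of 0.12 (standard error 0.09). The highest RCAN1 value was knockout 1, and knockout 3 was within the control range. Without knockout 1 the log2 fold change of RCAN1 was 0.04. TIAM1 and ADAMTS1 were lower without overlap, at -0.25 and -0.20.

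Metabolic and redox members had a median of -0.11 over 9 genes, 6 below 0, and of -0.13 with the GC trend removed, -0.11 without knockout 1 and -0.16 without control 3. SOD1, the cytosolic copper and zinc superoxide dismutase, was at 202, 201 and 193 CPM in control and at 234, 187 and 171 CPM in knockout libraries, a log2 fold change of -0.01 (standard error 0.10). Knockout 1 was the highest of the 6 libraries while knockout 2 and knockout 3 were the lowest, and with a library left out the log2 fold change ran from -0.15, without knockout 1, to 0.08. PFKL, the liver type of phosphofructokinase, and AGPAT3, an acyltransferase of phospholipid synthesis, were both at -0.30, and GART, which catalyses several steps of purine synthesis, was at -0.20, all without overlap.

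A further 3 metabolic members were higher by small amounts. SLC37A1, a phosphate-linked sugar phosphate exchanger, was at 6.63, 6.13 and 6.18 CPM against 6.40, 7.37 and 7.52 CPM, a log2 fold change of 0.17 (standard error 0.13). CBR3, a carbonyl reductase, was at 7.42, 6.77 and 8.11 CPM against 8.78, 8.25 and 7.94 CPM, a log2 fold change of 0.16 (standard error 0.13). The groups of both genes overlapped, SLC37A1 through knockout 1 and CBR3 through control 3, and with a library left out they ran from 0.12 to 0.24 and from 0.10 to 0.23. Its neighbour CBR1 was at 44.3, 42.6 and 43.9 CPM against 44.8, 44.8 and 44.5 CPM, without overlap but with a log2 fold change of only 0.04 (standard error 0.08). HLCS and PDXK, which attach biotin to carboxylases and phosphorylate vitamin B6 forms, were lower, at -0.11 and -0.18 with overlapping groups, and PDXK was at -0.11 without knockout 1.

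All 8 RNA and ribosome genes were below 0, with a median of -0.26 (-0.28 with the GC trend removed, -0.21 without knockout 1 and -0.23 without control 3), and 7 were without overlap, beside 11.5% of all loci. PWP2, a component of the small ribosomal subunit processome, was at 72.9, 74.0 and 69.1 CPM in control and at 51.9, 61.4 and 58.5 CPM in knockout libraries, a log2 fold change of -0.33 (standard error 0.08). SON, a splicing cofactor of nuclear speckles, was at 655, 658 and 685 CPM against 524, 574 and 580.3 CPM, a log2 fold change of -0.25 (standard error 0.07). In both genes knockout 1 was the lowest library, and SON overlaps exons of DONSON on the opposite strand. WDR4, a partner of the tRNA methyltransferase METTL1, was at -0.32, URB1 and RRP1B, nucleolar proteins of ribosome assembly, at -0.30 and -0.26, MCM3AP, of mRNA export, at -0.23 (-0.14 without knockout 1) and SCAF4, a binder of RNA polymerase II, at -0.22. MRPS6, a protein of the mitochondrial ribosome, was at -0.08, and at 0.00 without control 3, and was the member of this group whose libraries overlapped.

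Transcription and chromatin genes had a median of -0.12 over 14 members, 12 below 0 and 5 without overlap, beside 11.5% of all loci. The median was -0.18 with the GC trend removed, -0.15 without knockout 1 and -0.10 without control 3. ETS2, a transcription factor, was at 64.1, 59.5 and 64.8 CPM in control and at 47.5, 50.2 and 51.9 CPM in knockout libraries, a log2 fold change of -0.33 (standard error 0.08). Each knockout library was below each control library. With a library left out, the log2 fold change of ETS2 lay between -0.37 and -0.30. BTG3, an antiproliferative protein, was at 76.3, 77.2 and 78.8 CPM against 95.4, 75.5 and 76.4 CPM, a log2 fold change of 0.09 (standard error 0.10) that rested on knockout 1 and was -0.03 without it. RUNX1 was at -0.23 without overlap and CHAF1B, of the histone chaperone CAF-1, at 0.01. HMGN1, a nucleosome-binding protein, was at -0.10, and with a library left out ran from -0.17, without knockout 1, to -0.04.

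All 9 protein folding and turnover genes were below 0, with a median of -0.07 that was -0.15 with the GC trend removed, -0.13 without knockout 1 and -0.05 without control 3. Without control 3 HSPA13, LTN1 and PSMG1 were above 0, at 0.06, 0.03 and 0.01. CCT8, a subunit of the chaperonin that folds actin and tubulin, was at 584, 592 and 634 CPM in control and at 718, 495 and 489 CPM in knockout libraries, a log2 fold change of -0.09 (standard error 0.13). HSPA13, a microsomal relative of the HSP70 chaperones, was at 148, 152 and 189.7 CPM against 195, 138 and 135 CPM, a log2 fold change of -0.06 (standard error 0.15). In both, knockout 1 was the highest of the 6 libraries and the other knockout libraries the lowest, and the log2 fold changes were lowest without knockout 1. With a library left out they ran from -0.30 to 0.01 and from -0.26 to 0.06. SUMO3 and TTC3, whose windows hold CACGTG, were at -0.12 and -0.13 without overlap, and TTC3 was at -0.20 with the GC trend removed.

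Membrane traffic, centrosome and other genes had a median of -0.19 over 9 members, RWDD2B, PTTG1IP and the replication factor DONSON among them, and of -0.21 with the GC trend removed, -0.12 without knockout 1 and -0.16 without control 3. C2CD2 was at -0.26, PCNT, the scaffold of pericentriolar material, at -0.24, and ITSN1, an endocytic scaffold, and TRAPPC10, a tethering subunit, both at -0.19, all without overlap. Without knockout 1, PCNT was at -0.15 and ITSN1 at -0.09. SYNJ1, a phosphoinositide phosphatase of endocytosis, was the exception, at 40.3, 37.9 and 39.7 CPM in control and 40.9, 44.5 and 44.1 CPM in knockout libraries, a log2 fold change of 0.13 (standard error 0.08). Its knockout libraries were all higher, knockout 1 barely so, and the log2 fold change was 0.08 with the GC trend removed.

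Levels spanned a wide range across the members. On the RPKM scale the control level was 338 ± 10.7 for HMGN1, 325 ± 14.5 for CCT8, 247 ± 2.75 for APP and 222 ± 5.66 for SOD1, and lowest for SLC37A1 at 1.70 ± 0.0748 (SD, n = 3). HMGN1 and CCT8 were within their spread of each other. The 30 members with more counts were all below 0 with all 6 libraries, though not under every alternative, with a median of -0.18, and the 30 with fewer counts had a median of -0.11 with 21 below 0, beside 47.8% of all loci. With the GC trend removed these medians were -0.20 and -0.18, without knockout 1 -0.16 and -0.13, and without control 3 -0.16 and -0.08. The 30 members with an exon overlapping another gene had a median of -0.11 and the 30 without had -0.17. Without knockout 1 both were -0.14, with the GC trend removed they were -0.17 and -0.20, and without control 3 they were -0.07 and -0.15.

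Position and base composition were not used to choose among the members. The 20 nearest the centromere, HSPA13 to IFNAR2, had a median log2 fold change of -0.10, the next 20, IL10RB to PSMG1, had -0.11, and the last 20, BRWD1 to PRMT2, had -0.19. Without overlap in the lower direction were 6, 8 and 15 members of these stretches, in the same order, beside 11.5% of all loci. The order of the stretches turned without knockout 1, where the medians were -0.17, -0.11 and -0.14. They were -0.05, -0.06 and -0.21 without control 3, and -0.17, -0.15 and -0.20 with the GC trend removed. Other chromosome 21 genes within these stretches, 14, 13 and 40 in number, had medians of -0.01, -0.19 and -0.15. Their medians were -0.04, -0.24 and -0.10 without knockout 1 and 0.03, -0.13 and -0.18 without control 3. With the GC trend removed they were -0.05, -0.24 and -0.15. The 30 members with lower exon GC content had a median of -0.09, and the 30 with higher GC had -0.19. Without knockout 1 this difference was gone, at -0.15 and -0.14, and without control 3 it was wider, at -0.05 and -0.21. With the GC trend of each library removed the medians were -0.16 and -0.21. Across the 60 genes, which share the same 6 libraries and are not independent replicates, Spearman's rho of the log2 fold change was -0.35 with exon GC content and -0.29 with order along the chromosome, and with the trend removed -0.19 and -0.17.

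**Figure D3:**
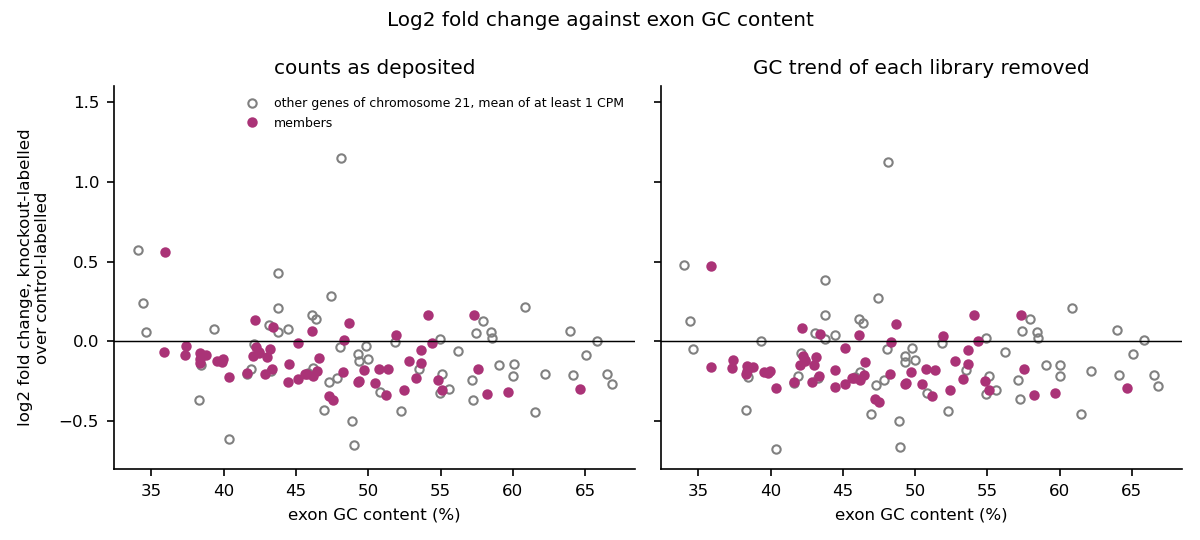
Log2 fold change, knockout-labelled over control-labelled libraries, against exon GC content in percent for the 60 members (filled) and for other chromosome 21 genes averaging 1 CPM or more (open), from the counts as deposited (left) and with the GC trend of each library removed (right). Most members are below 0 in both panels, with medians of -0.14 and -0.18.

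The other 69 genes of chromosome 21 kept by the filter lay lower by a similar amount. Their median log2 fold change was -0.14, with 45 below 0, and it was -0.15 with the GC trend removed, -0.10 without knockout 1 and -0.11 without control 3. Knockout libraries were all below control libraries for 17 of them, beside 11.5% of all loci, and all above for RBM11 and NCAM2, beside 11.8%. Among 24 chromosomes, with the mitochondrial genome counted as a chromosome, chromosome 21 had the lowest median at -0.14, followed by chromosome 18 at -0.06, and chromosome 10 had the highest at 0.12. The shift of chromosome 21 was the reason for choosing the members, so its place is a description. It was also the lowest with the GC trend removed (-0.18), without knockout 1 (-0.13) and without control 3 (-0.13).

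Genes that work with the interferon receptors lie on other chromosomes. They and the lists that follow were drawn up with earlier results of these data known. Of 21 receptor, kinase, STAT and regulator genes, 20 were tested and 0 passed a Benjamini-Hochberg adjusted p of 0.05 in edgeR's quasi-likelihood test, beside 2.51% of all loci. At an unadjusted p under 0.05 there was 1 lower gene and 0 higher, beside 7.78% and 9.08% of all loci. The lower gene was PTPN1 at -0.18 (-0.11 without knockout 1). DESeq2, which called 2.71% of all loci lower and 2.17% higher, called 0 of the listed genes. With limma-voom, for which no share is given, there were also 0 calls among these genes. Their median log2 fold change was -0.06, with 13 below 0, 3 without overlap in the lower direction and JAK1 in the higher, beside 11.5% and 11.8% of all loci. The median was -0.08 with the GC trend removed, -0.02 without knockout 1 and -0.03 without control 3. TYK2, which binds IFNAR1, had a log2 fold change of -0.12, JAK1, which binds IFNAR2, 0.04, IFNGR1, the partner of IFNGR2, -0.19, and IL10RA, the partner of IL10RB, -0.12. Without knockout 1, TYK2 was at -0.02, IFNGR1 at -0.33 and IL10RA at 0.02. PTPN1 is named after its value was seen.

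Interferon-stimulated genes outside chromosome 21 fell in part, on a list drawn up with earlier results of these data known. Of 47 listed, 46 were tested, 11 fell and 0 rose at a Benjamini-Hochberg adjusted p under 0.05 in edgeR's quasi-likelihood test, beside 1.43% and 1.08% of all loci. At an unadjusted p under 0.05 there were 16 lower and 1 higher, beside 7.78% and 9.08% of all loci, and DESeq2 called 12 lower and 0 higher, beside 2.71% and 2.17% of all loci. Their median log2 fold change was -0.13 (-0.18 with the GC trend removed, -0.15 without knockout 1 and -0.18 without control 3), 35 were below 0, and 19 were without overlap in the lower direction, beside 11.5% of all loci. The other 11 were above 0, among them PSMB9 at 0.30 (0.27 without knockout 1). PSMB9 was the 1 higher gene at an unadjusted p under 0.05 and is named after its value was seen. OASL, a relative of the oligoadenylate synthetases, was at 81.9, 86.5 and 75.8 CPM in control and at 37.0, 37.1 and 36.1 CPM in knockout libraries, and its log2 fold change was -1.15 (standard error 0.08), with a Benjamini-Hochberg adjusted p of 3.69e-05 from the same edgeR test. IFIT3, which binds viral RNA complexes with its family members, was at 194, 198 and 209 CPM against 144, 147 and 139 CPM, a log2 fold change of -0.48 (standard error 0.07), with a Benjamini-Hochberg adjusted p of 0.00505 from that edgeR test. Both were lower in every knockout library than in any control library and kept the call without each single library in turn.

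The number that fell depended on the libraries: without control 1, 2 or 3 it was 5, 2 or 3, and without knockout 1, 2 or 3 it was 12, 5 or 4. The lower calls over all loci moved too, with shares of 0.549%, 0.443% and 0.535% without control 1, 2 and 3 and of 2.26%, 0.641% and 0.979% without knockout 1, 2 and 3. The higher calls were 0.549%, 0.304% and 0.397% and then 1.95%, 0.441% and 0.679% of all loci. RIGI, a sensor of viral RNA (log2 fold change -0.55, Benjamini-Hochberg adjusted p = 0.0128 in edgeR's quasi-likelihood test), lost the call without control 2 (0.0520) and control 3 (0.0796). IFI44 (-0.66, Benjamini-Hochberg adjusted p = 0.0163 from the same edgeR test) lost it without control 2 (0.0742) and control 3 (0.0979). IFIH1, also a sensor of viral RNA (-0.42, Benjamini-Hochberg adjusted p = 0.0292 from the same edgeR test), lost it without control 2 (0.145), control 3 (0.0985) and knockout 3 (0.0692). IFIT1 at -0.53, IFIT2 at -0.39 and DDX60 at -0.38 had adjusted p of 0.0325, 0.0326 and 0.0348 by the same edgeR test and Benjamini-Hochberg adjustment. These last genes kept the call without knockout 1 and lost it without any other library, with adjusted p of 0.0744 to 0.141 for IFIT1, 0.0877 to 0.153 for IFIT2 and 0.0615 to 0.174 for DDX60. In all 6 genes the knockout libraries were below the control libraries without overlap.

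Relatives and complex partners of the members on other chromosomes gave a further set of genes, of which 78 of 82 were tested. Of these 3 fell and 1 rose at a Benjamini-Hochberg adjusted p under 0.05 in edgeR's quasi-likelihood test, beside 1.43% and 1.08% of all loci. Their median was -0.04 (-0.07 with the GC trend removed, -0.06 without knockout 1 and -0.04 without control 3), with 13 without overlap in the lower direction and 10 in the higher, beside 11.5% and 11.8% of all loci. For 46 members with a tested relative, the member's log2 fold change was below the median of its relatives in 35 and above it in 11, with medians of -0.17 and -0.04. The members were chosen for lying lower in this contrast, so nothing is read from this tally. HSPA5, the endoplasmic reticulum chaperone related to HSPA13, was at 1974, 1957 and 1757 CPM in control and at 1371, 1386 and 1354 CPM in knockout libraries, a log2 fold change of -0.47 (standard error 0.07), with a Benjamini-Hochberg adjusted p of 0.00676 in edgeR's quasi-likelihood test. Its groups did not overlap, and the call was lost without control 2 (Benjamini-Hochberg adjusted p = 0.0663 from the same edgeR test). BTG2, an antiproliferative relative of BTG3 and a target of p53, was at 30.1, 26.5 and 26.1 CPM against 43.4, 55.9 and 49.3 CPM, a log2 fold change of 0.85 (Benjamini-Hochberg adjusted p = 0.00233 from the same edgeR test), higher in every knockout library and called without each single library in turn.

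RUNX2, a relative of RUNX1, was at 21.5, 22.6 and 21.4 CPM in control and at 16.0, 16.0 and 16.6 CPM in knockout libraries, a log2 fold change of -0.43 (Benjamini-Hochberg adjusted p = 0.0279 from the same edgeR test). It kept the call without knockout 1 and lost it without any other library, with adjusted p of 0.0609 to 0.142 by that edgeR test and Benjamini-Hochberg adjustment. SLC37A2 was at 3.43, 3.14 and 3.86 CPM against 1.22, 2.10 and 1.51 CPM, a log2 fold change of -1.13 (Benjamini-Hochberg adjusted p = 0.0226 from the same edgeR test). It lost the call without control 1 (0.0615), control 2 (0.0624), control 3 (0.102) and knockout 3 (0.0630). Both were lower in each knockout library than in any control library. The 4 calls became 2, 1 and 2 without control 1, 2 and 3, and 9, 3 and 2 without knockout 1, 2 and 3. In these fits 1.10%, 0.747%, 0.932%, 4.21%, 1.08% and 1.66% of all loci were called, in the same order.

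The other relatives of members described in full did not pass the test on the deposited counts of all 6 libraries. With the GC trend removed TCP1, BACE1, DYRK1B, ETS1 and SOD2 did, with adjusted p of 0.00754, 0.0348, 0.0469, 0.0418 and 0.0251 by the same edgeR test and Benjamini-Hochberg adjustment. Without knockout 1, TCP1, CCT3, CCT5 and BACE1 did (0.00367, 0.0352, 0.0229 and 0.0304), and DESeq2 also called TCP1. Of the CCT8 partners in the chaperonin, TCP1 was at -0.31 and CCT3 at -0.15 without overlap, CCT5 at -0.13, CCT2 at -0.01, CCT6A at 0.01, CCT4 at 0.06 and CCT7 at 0.08. Without knockout 1 these were -0.37, -0.21, -0.23, -0.24, -0.12, -0.01 and 0.03. APLP1 and APLP2, the relatives of APP, had log2 fold changes of 0.07 and 0.13, and BACE1, the relative of BACE2 and the main beta-secretase, had 0.27 (0.33 without knockout 1), where APP and BACE2 were at -0.34 and -0.37. ETS1 was at -0.20 beside ETS2 at -0.33, and CLMP at -0.24 beside CXADR at 0.56. DYRK1B was at 0.45 beside DYRK1A at -0.07, and RCAN3 at 0.29 beside RCAN1 at 0.12, while RCAN2 did not pass the filter on low counts. SOD2, the mitochondrial superoxide dismutase, was at -0.18 and CCS, the copper chaperone of SOD1, at -0.01. SYNJ2 was at -0.12, CBR4 at 0.02, BTG1 at -0.04, SLC37A3 at -0.01 and SLC37A4 at -0.08, and SRRM2, UTP6 and WDR36, paired with SON and PWP2, at -0.17, 0.12 and -0.04 (-0.08, -0.02 and -0.15 without knockout 1). With a library left out APLP1 ran from -0.03 to 0.18, CCS from -0.05 to 0.04, CBR4 from -0.09 to 0.17 and SLC37A3 from -0.06 to 0.04. Whether a member and its relative differ from each other was not tested.

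**Figure D4:**
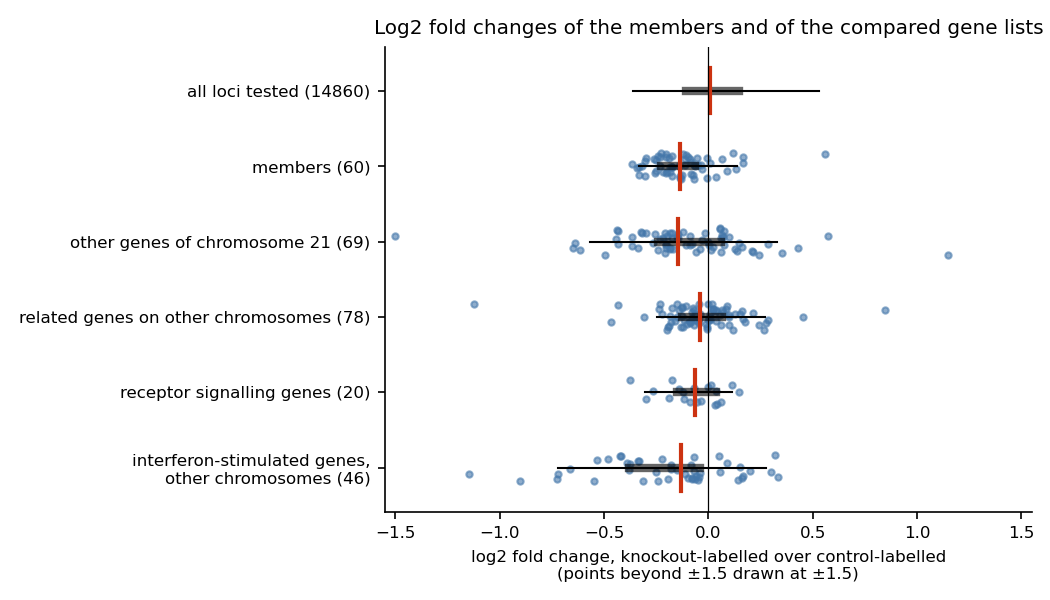
Log2 fold changes, knockout-labelled over control-labelled libraries, of all tested loci, the members and the compared lists, with a point per gene for lists, red marks at medians, thick bars from the 25th to the 75th percentile and thin bars from the 5th to the 95th. Medians are 0.01 for all loci, -0.14 for the members, -0.14 for other chromosome 21 genes, -0.04 for relatives, -0.06 for receptor signalling and -0.13 for interferon-stimulated genes.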

How the data were processed

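RNA-seq libraries of HTori-3.1 cells, 3 labelled control and 3 labelled BMAL1 knockout, were compared. The authors deposited raw counts of reads per gene or assembled locus on hg38; their notes name fastp 0.20.1 and HISAT2 2.0.4, and annotation and strandedness of counting are not given, so values of overlapping genes are uncertain. Of 22354 loci, 20018 matched GENCODE v44 by name and 2310 were assembled from reads. edgeR 4.0.16 (R 4.3.3) was used with TMM factors, default filterByExpr and robust quasi-likelihood tests, 2-sided, with Benjamini-Hochberg adjustment over 14860 loci and a threshold of 0.05. Between the libraries of a group, the biological coefficient of variation was 0.108. The scripts were tested on simulated data, with 200 genes altered in each run. The edgeR test called 98.5% of them where the simulated shift was 1 on the log2 scale, and 9.5% where it was 0.35. Most shifts reported here are no larger than 0.35, so a low count of calls, or a count of 0, cannot show that genes were unchanged. Standard errors were derived from the edgeR test, as the size of the log2 fold change divided by the square root of the F statistic. RPKM used the canonical transcript length. GC trends were removed through offsets from loess fits (span 0.5) of log2 counts on exon GC content, known for 91.4% of loci.

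The members and lists were chosen with earlier results of these data known, and some listed genes were not used here. Named in full were the interferon receptor genes, SOD1, APP, DYRK1A, members past the threshold, the 3 lowest, up to 8 above 0 and, added with their values known, PWP2, SON, CCT8 and HSPA13; from the other lists, up to 8 genes past the threshold and relatives of those members; from the rest of chromosome 21, the 3 lowest and 3 highest with a mean of at least 1 CPM. Alternatives were library size only, median-of-ratios size factors, no filter, at least 10 counts in every library, named loci only, DESeq2 1.42.0, limma-voom (limma 3.58.1), thinning to the smallest total, the GC correction, the replicate number as a block, and each library left out in turn. No source says that replicates are separate cultures, so p-values measure only the spread between these samples, which may be technical.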

Additional observations from a re-analysis of the deposited data

How the results depend on the processing

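Under 16 alternatives, 45 to 52 of the 60 members had a log2 fold change below 0, and the member median (-0.14) ran from -0.18 to -0.11, being -0.11 with library size only and -0.18 with the GC trend removed. The median of the other chromosome 21 genes (-0.14) was -0.11 with library size only and -0.13 to -0.10 with a library left out. Members lower past the threshold were 3, beside 1.43% of all loci. They were 10 with DESeq2, beside 2.71%, and 20 with the GC trend removed, beside 5.05%. With a library left out they were 0 to 6, beside 0.443% to 2.26%, and with library size only 1. With the replicate number as a block the member count was 0. No share of all loci is given for that fit or for library size only. Same-numbered libraries did not deviate together (correlations -0.12, -0.0221 and -0.0298 over 13341 loci), so the numbers give no pairing. Loci called (373) were 697 with DESeq2, 1147 with the GC trend removed and 113 to 633 with a library left out. The BMAL1 log2 fold change was 0.50 to 0.70 with a library left out. Interferon-stimulated genes called (11) were 2 to 12 with a library left out. Relatives of the members called (4) were 11 with the GC trend removed and 1 to 9 with a library left out. Beside these, 2.51% of all loci were called, and 0.747% to 4.21% with a library left out. With the GC trend removed 5.05% of all loci were called lower and 2.67% higher. The receptor signalling list had 0 calls under all 16. For 20 members described in full, 318 of 320 values were within 1 SD of the value reported. The tally cannot show stability, since CCT8 without knockout 1, at -0.30 beside -0.09, also lay within it. SOD1, BTG3, CCT8 and HSPA13 changed sign with a library left out. The cause was not tested. With 3 libraries a group, the call of a single gene can turn on 1 library.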

Other observations

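Chromosome 21 also carries the interferon-induced antiviral genes MX1 and MX2, which are not members. MX2 was measured at 12.1, 12.5 and 10.4 CPM in the libraries labelled control and at 6.42, 9.14 and 6.77 CPM in those labelled BMAL1 knockout, a log2 fold change of -0.65 (standard error 0.15), with every knockout library lower. MX1 was at 14.9, 13.2 and 11.6 CPM against 11.4, 13.6 and 12.6 CPM, a log2 fold change of -0.08 (-0.16 to 0.01 with a library left out), with the groups interleaved. Of the other genes averaging 1 CPM or more, LCA5L at -0.61 and B3GALT5 at -0.50 followed MX2 as the lowest, and with a library left out ran from -0.81 to -0.40 and from -0.73 to -0.28. The highest were the readthrough locus IFNAR2-IL10RB at 1.15, NCAM2, a neural cell adhesion molecule, at 0.57 and JAM2, a junctional adhesion molecule, at 0.43. With a library left out NCAM2 ran from 0.45 to 0.81 and JAM2 from 0.11 to 0.82. IFNAR2-IL10RB was at 1.12, 0.262 and 0.928 CPM against 0.0703, 1.57 and 3.48 CPM, a spread within the knockout group that exceeds the difference between the groups, and its log2 fold change was 0.01 to 1.72 with a library left out.

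Past the threshold among the 69 other genes were 4, all lower, beside 1.43% of all loci: MX2, SLC19A1, ADARB1 and GET1-SH3BGR, the last 3 named after their values were seen. SLC19A1, the reduced folate carrier, was at 61.6, 71.6 and 65.0 CPM in control and at 42.3, 48.3 and 55.0 CPM in knockout libraries, a log2 fold change of -0.44 (standard error 0.10). ADARB1, an RNA-editing adenosine deaminase, was at 42.0, 42.1 and 39.5 CPM against 27.9, 33.1 and 30.6 CPM, a log2 fold change of -0.43 (standard error 0.09). GET1-SH3BGR, a readthrough locus, was at 0.783, 1.05 and 1.14 CPM against 0.234, 0 and 0 CPM, too low for a fold change to be given. MX2 stayed past the threshold without knockout 2 (-0.82), SLC19A1 without knockout 1 (-0.35) and knockout 3 (-0.54), ADARB1 without knockout 1 (-0.38) and knockout 2 (-0.50) and GET1-SH3BGR without knockout 1, and none of the 4 without any other single library, where MX2 lay between -0.73 and -0.56, SLC19A1 between -0.49 and -0.38 and ADARB1 between -0.46 and -0.42. These genes share the contrast that chose the members, so the values are a description.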
